A study of Mus musculus with 6 samples.

Results

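*Tnfsf11*, *Tnfrsf11b* and *Csf1* encode the secreted and membrane proteins through which osteoblasts control osteoclast formation, namely RANKL, osteoprotegerin (OPG) and macrophage colony-stimulating factor (M-CSF). These 3 genes were picked by name, and each has 1 row among the 24016 mouse genes of the deposited table. The libraries came from MC3T3-E1 subclone 4, a preosteoblast line from mouse calvaria that is labelled wild type and is 1 clone. Differentiation ran for 6 days in medium with 50 μg/ml of ascorbic acid and β-glycerophosphate at 10 mM, after which the cells received vehicle (3 libraries) or 100 nM corticosterone (3 libraries) for 24 h. The labels' treatment text names corticosterone together with calcitriol (10 nM) and is the same for all 6 libraries, vehicle libraries included, while the study's methods do not mention calcitriol. Groups follow the sample titles, which read Ctrl or Cortico, and whether either group received calcitriol is not settled. This bears on every comparison of the groups, those of *Tnfsf11*, *Tnfrsf11b*, their ratio and *Vdr* included. Passages are stated as 4 to 10 for growth and as 6 to 12 in the batch label, and the study's methods give another range. The series describes 3 biological replicates per group, without saying whether they came from separate passages, so that p-values measure the spread between these libraries.

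M-CSF acts on its receptor CSF1R and keeps osteoclast precursors alive and dividing. RANKL binds its receptor RANK on these precursors and drives their fusion and maturation, whereas OPG is a soluble decoy receptor that captures RANKL before it reaches RANK. The balance of RANKL and OPG released by the osteoblast lineage is therefore commonly used as an index of the support for bone resorption, and calcitriol, parathyroid hormone and cytokines of the gp130 family are classic inducers of *Tnfsf11* in these cells.

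All 3 genes lie on the minus strand of GRCm38 (mm10). *Tnfsf11* (ENSMUSG00000022015) spans chr14:78277445-78308043 and has 1 annotated transcript of 5 exons and 2236 bases. *Tnfrsf11b* (ENSMUSG00000063727) spans chr15:54250619-54278484, also with 1 transcript of 5 exons, of 2818 bases. *Csf1* (ENSMUSG00000014599) spans chr3:107741048-107760469 and has 7 annotated transcripts, whose exons merge into 12 blocks of 5281 bases. Its membrane-bound and secreted isoforms cannot be told apart in values given per gene. No other annotated gene overlaps any of the 3, and 0% of their 31-base stretches occur in transcripts of another gene on either strand, so that their reads are not shared with annotated copies.

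The bases just upstream of the transcription start are shown for *Tnfsf11*, which changed, and *Csf1*, for which no change was detected. RefSeq windows on GRCm38.p6 were matched for 2 of the 3 genes and not for *Tnfrsf11b*. Each window holds the 250 bases before the start, read 5′ to 3′ on the strand of the gene, at chr14:78308044-78308293 and chr3:107760470-107760719. Capitals mark matches to any of 4 short motifs searched on both strands, which were AGAACA (a hexamer bound by the glucocorticoid receptor), AGGTCA (bound by other nuclear receptors), TGTGGT (the RUNX core) and TATAAA. Each window held 1 match.
Tnfsf11: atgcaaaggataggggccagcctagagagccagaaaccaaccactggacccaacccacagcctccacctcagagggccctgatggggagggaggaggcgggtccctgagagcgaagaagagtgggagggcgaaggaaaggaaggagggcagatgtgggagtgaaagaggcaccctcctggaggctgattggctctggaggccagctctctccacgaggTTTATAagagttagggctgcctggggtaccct
Csf1: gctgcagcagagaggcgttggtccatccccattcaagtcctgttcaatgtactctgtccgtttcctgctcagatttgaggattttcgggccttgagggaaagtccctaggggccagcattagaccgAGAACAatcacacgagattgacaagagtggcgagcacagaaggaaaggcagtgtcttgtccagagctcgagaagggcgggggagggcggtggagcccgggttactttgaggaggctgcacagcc
The *Tnfsf11* window holds TATAAA on the opposite strand, read as TTTATA, 32 to 27 bases before the start. The *Csf1* window holds AGAACA on its own strand, 124 to 119 bases before the start. Among 32817 RefSeq windows of the same length, AGAACA occurred in 16.1%, AGGTCA in 14.0%, TGTGGT in 14.0% and TATAAA in 12.4%. These matches describe letters only and say nothing of binding.

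The values behave as whole reads that were divided by 1 factor for each library, although the authors named them FPKM, and the term normalized count is used for them. Libraries held 16020401 to 25638645 reads on genes, and every corticosterone library was shallower than every vehicle library. Groups were compared with limma on log2(normalized count + 0.1) across all genes, and a gene was called at a Benjamini-Hochberg adjusted p under 0.05 with an absolute log2 fold change over 1, the limits used in the study. All 8 osteoblast markers examined were expressed, with *Col1a1* between 624028 and 728294 normalized counts. After corticosterone, 7 of them were lower and 1 (*Spp1*) higher at an adjusted p under 0.05, and the 4 called lower were *Sp7*, *Ibsp*, *Bglap* and *Runx2*. Over all genes, 16.7% had such an adjusted p and 2.78% were called. Among genes with a mean normalized count of at least 10, as all 8 had, these shares were 27.7% and 3.58%. Among osteoclast markers, *Acp5* and *Calcr* had at most 4 and 6 reads in any library, whereas *Mmp9*, *Ctsk*, *Nfatc1* and *Itgb3* averaged 2733, 1852, 632 and 233 normalized counts with vehicle. The glucocorticoid targets *Fkbp5* and *Tsc22d3* were both called higher after corticosterone, by 2.46 and 1.49 on the log2 scale.

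*Tnfsf11* was the least expressed of the 3 genes, and its level rose after corticosterone. The vehicle libraries had 17.0, 17.0 and 17.6 normalized counts, from 21, 22 and 17 reads. The corticosterone libraries had 30.0, 55.2 and 55.0, from 28, 50 and 43 reads. All corticosterone libraries lay above all vehicle libraries, and the corticosterone library of replicate 1 lay closest to them. The exact 95% Poisson interval of that library was 19.9 to 43.3 and overlapped those of the vehicle libraries, which reached up to 28.2, whereas the intervals of the other 2 corticosterone libraries started at 41.0 and 39.8. These intervals cover counting error only.

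The level averaged 17.2 ± 0.336 in vehicle libraries and 46.7 ± 14.5 in corticosterone libraries (SD, n = 3 each), a 2.72-fold rise. The log2 fold change was 1.38 (95% interval 0.73 to 2.03, limma adjusted p = 0.0041). The spread among vehicle libraries was 1.95% of their mean, which is below the 22.4% that counting error alone gives at this depth, so the vehicle SD understates the error of *Tnfsf11*. In the corticosterone libraries the spread was 31.1% of the mean, against 15.7% from counting. The two-sided exact permutation test gave p = 0.1, the smallest that 3 against 3 libraries allow. The adjusted p rose to 0.052 without the corticosterone library of replicate 3, with a log2 fold change of 1.24, and to 0.060 without a trend in limma's prior variance. Over 19 alternatives it ranged from 6.8e-05 to 0.060.

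*Tnfrsf11b* moved the other way. Its vehicle libraries had 225, 312 and 275 normalized counts, from 278, 404 and 266 reads, and its corticosterone libraries had 146, 115 and 124, from 136, 104 and 97 reads. Every corticosterone library lay below every vehicle library, and the highest corticosterone value came from replicate 1, the library with the least *Tnfsf11* in that group. The mean fell from 271 ± 43.4 to 128 ± 15.8 (SD, n = 3 each), so that vehicle cells held 2.11 times as much. The log2 fold change was -1.07 (95% interval -1.35 to -0.80, limma adjusted p = 1.3e-05, two-sided exact permutation p = 0.1). Because this value lies close to the fold limit, the call was lost without the vehicle library of replicate 2 (-0.96) and without the corticosterone library of replicate 2 (-0.997), while the adjusted p was at most 0.0073 with any library left out and at most 0.031 in any of 19 alternatives.

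*Csf1* was abundant and no change was detected. Its vehicle libraries had 13408, 13424 and 12719 normalized counts and its corticosterone libraries 13486, 13065 and 13969, each from at least 10919 reads. The groups overlapped. The level averaged 13184 ± 402 in vehicle libraries and 13506 ± 452 in corticosterone libraries (SD, n = 3 each). The log2 fold change was 0.03 (95% interval -0.05 to 0.12, limma adjusted p = 0.67, two-sided exact permutation p = 0.4), and its sign turned (-0.0069) when libraries were scaled to the same total. This interval lies well inside the fold limit. In bulk RNA, fewer cells expressing a gene and less of its RNA per cell cannot be told apart.

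**Figure D1:**
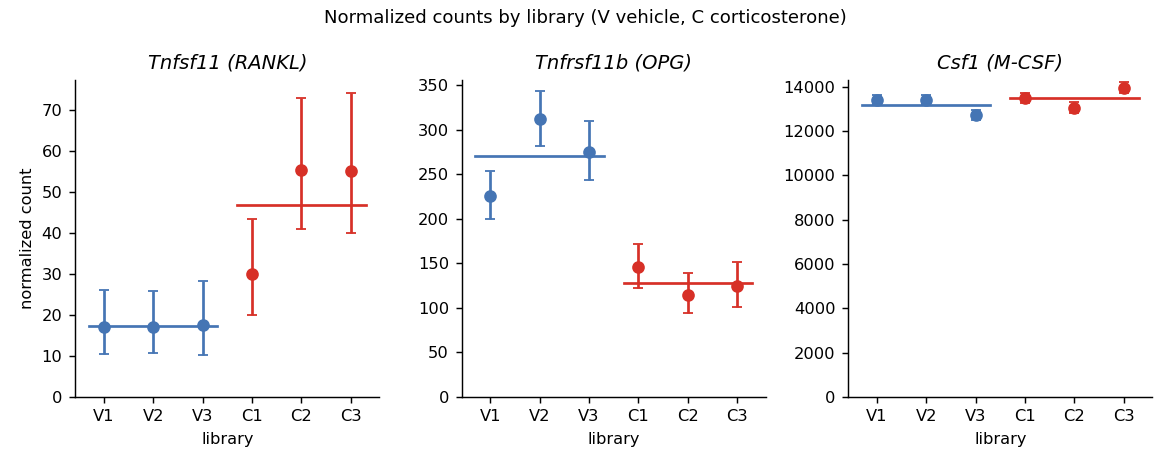
Normalized counts of *Tnfsf11*, *Tnfrsf11b* and *Csf1* in each vehicle (V, blue) and corticosterone (C, red) library, with vertical axes that start at 0. Bars are exact 95% Poisson intervals of the reads and horizontal lines are group means. The corticosterone libraries of *Tnfsf11* lie above 29 and its vehicle libraries below 18, those of *Tnfrsf11b* lie below all vehicle libraries, and those of *Csf1* overlap them.

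Of the 3 genes, 2 were called and 2 had groups that did not overlap. Over all genes tested, 2.78% were called (1.38% higher and 1.40% lower), 16.7% had an adjusted p under 0.05 alone, and 29.6% had groups that did not overlap. Among genes with a mean of at least 10, as all 3 had, 3.58% were called and 43.8% had groups that did not overlap. Because the 3 genes were chosen with earlier results of these data known, these shares are no test of them.

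Per length, the order of the 3 genes was the same in both groups. The mean normalized count per kilobase of exon was 2496 for *Csf1*, 96.1 for *Tnfrsf11b* and 7.69 for *Tnfsf11* with vehicle. With corticosterone it was 2558, 45.5 and 20.9. Of all genes with an annotated length, 98.8% had a lower vehicle level per kilobase than *Csf1*, 69.0% a lower one than *Tnfrsf11b* and 42.8% a lower one than *Tnfsf11*. With corticosterone these shares were 98.7%, 59.4% and 51.9%. No library of one gene reached the level per kilobase of its neighbour in this order.

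The ratio of *Tnfsf11* to *Tnfrsf11b* reads was taken within each library, where the size factor cancels. The vehicle libraries had 0.0755, 0.0545 and 0.0639 *Tnfsf11* reads per *Tnfrsf11b* read. The corticosterone libraries had 0.206, 0.481 and 0.443. Put the other way, vehicle cells held 13.2, 18.4 and 15.6 *Tnfrsf11b* reads for each *Tnfsf11* read and corticosterone cells 4.86, 2.08 and 2.26. The groups did not overlap, and the lowest corticosterone ratio was 2.73 times the highest vehicle ratio. The exact 95% binomial intervals, which cover counting error only, did not overlap between groups either, since the highest vehicle bound was 0.118 and the lowest corticosterone bound 0.132.

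The ratio averaged 0.0646 ± 0.0106 in vehicle libraries and 0.377 ± 0.149 in corticosterone libraries (SD, n = 3 each). On the log2 scale the difference was 2.46 (standard error 0.41), a 5.51-fold higher geometric mean, with two-sided exact permutation p = 0.1, the smallest this design allows. Of that difference, 1.39 came from the rise of *Tnfsf11* and 1.07 from the fall of *Tnfrsf11b*. With any library left out it stayed between 2.24 and 2.85. Divided by exonic length, the ratio was 0.0815 ± 0.0133 with vehicle and 0.475 ± 0.188 with corticosterone (SD, n = 3 each), and lay below 1 in all 6 libraries. The lower ratio of corticosterone replicate 1 rests on both its genes, since this library had the least *Tnfsf11* and the most *Tnfrsf11b* of its group. That library was not the lowest of its group in the glucocorticoid targets *Fkbp5* (2543 normalized counts, against 2337 and 2788) and *Tsc22d3* (1471, against 1333 and 1511). Why its ratio was lower was not tested.

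**Figure D2:**
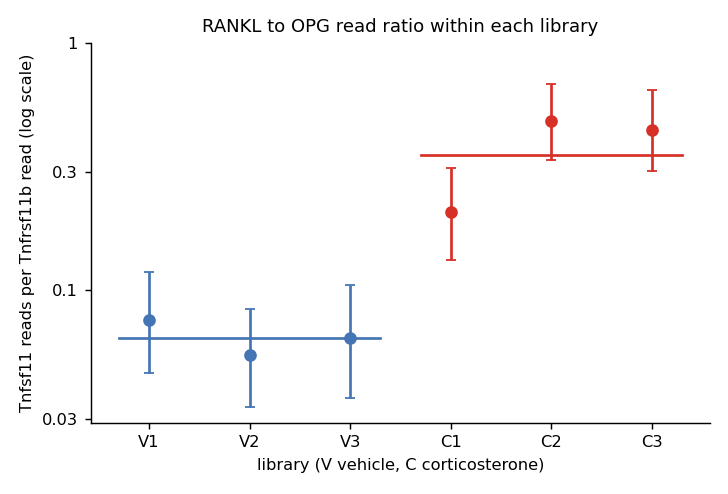
*Tnfsf11* reads per *Tnfrsf11b* read in each vehicle (V, blue) and corticosterone (C, red) library, on a log scale. Bars are exact 95% binomial intervals and horizontal lines are geometric means. The vehicle libraries lie between 0.0545 and 0.0755 and the corticosterone libraries between 0.206 and 0.481.

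The receptors of these ligands and their close relatives were examined next. Of 5 genes listed, *Tnfrsf11a* (RANK) was not analysed here. *Il34*, which encodes the second ligand of CSF1R, was higher after corticosterone, with 667, 865 and 667 normalized counts with vehicle and 1201, 1287 and 1213 with corticosterone. Its log2 fold change of 0.76 (95% interval 0.58 to 0.94, limma adjusted p = 4.4e-06) stayed under the fold limit. Per kilobase of exon, *Il34* had a mean of 374 with vehicle and 630 with corticosterone, below *Csf1* in both groups. *Lgr4*, a receptor that also binds RANKL, was higher by 0.39 on the log2 scale (limma adjusted p = 0.0014, and 0.098 without the variance trend). *Csf1r* itself had 12 to 38 reads per library, with a log2 fold change of -0.49 (limma adjusted p = 0.46). The value of *Tnfsf10*, the TRAIL ligand that OPG can also bind, was -0.24 (limma adjusted p = 0.46).

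Membrane RANKL and M-CSF are released by proteases. *Adam17*, a sheddase of M-CSF, had 1460, 1333 and 1482 normalized counts with vehicle and 2060, 2019 and 1960 with corticosterone, without overlap. Its log2 fold change was 0.50 (limma adjusted p = 2.5e-06). *Mmp14*, which cleaves RANKL, had a log2 fold change of 0.22 (limma adjusted p = 0.0096). This adjusted p was 0.28 without the variance trend, and 0.085, 0.15, 0.081 and 0.10 without vehicle replicate 1, vehicle replicate 3, corticosterone replicate 2 and corticosterone replicate 3. *Adam10* had a log2 fold change of -0.07 (limma adjusted p = 0.39). None of these 3 reached the fold limit, and *Mmp7* was not analysed here.

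Among 16 of 17 listed genes that act upstream of *Tnfsf11* or *Tnfrsf11b*, 1 was called higher and 2 lower, and 5 higher and 6 lower had an adjusted p under 0.05 (*Ebf2* was not analysed here). Over all genes 2.78% were called and 16.7% had such an adjusted p, or 27.7% among genes with a mean normalized count of at least 10, as all 16 had. *Vdr*, the receptor of calcitriol, had 1530, 1293 and 1509 normalized counts with vehicle and 5961, 5465 and 5891 with corticosterone, a 4.00-fold rise. Its partner *Rxra* was higher by 0.22 on the log2 scale (limma adjusted p = 0.0029, and 0.16 without the variance trend). *Pth1r*, which encodes the receptor of parathyroid hormone, fell from 1536, 1909 and 1835 to 640, 731 and 768, and the osteoblast transcription factor gene *Runx2* from 2227, 2477 and 2312 to 1027, 1092 and 1029. The groups of *Vdr*, *Pth1r* and *Runx2* stood apart by more than their spread. Of the gp130 cytokine receptors, *Il6st* (0.58) and *Osmr* (0.57) were higher and *Lifr* (-0.42) lower on the log2 scale, each with a limma adjusted p of at most 5.5e-05, which for *Lifr* was 0.058 without the variance trend. The transcription factor gene *Cebpb* was higher by 0.50 (limma adjusted p = 5.1e-06). The glucocorticoid receptor gene *Nr3c1* was lower (-0.44, limma adjusted p = 2.7e-06), as were the estrogen receptor gene *Esr1* (-0.42, limma adjusted p = 0.0055) and the Wnt effector *Tcf7l2* (-0.19, limma adjusted p = 0.021). The adjusted p of *Esr1* was 0.05 or more in 3 of 19 alternatives, 0.078 without vehicle replicate 3 among them, and that of *Tcf7l2* in 6, including each corticosterone library and vehicle replicate 1 left out (0.051 to 0.086). *Il1r1*, *Stat3*, *Creb1*, *Rela* and *Ctnnb1* had log2 fold changes between -0.15 and 0.03, with limma adjusted p from 0.072 to 0.98. The adjusted p of *Rela* (0.072) was under 0.05 in 5 of 19 alternatives.

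Other osteoblast factors that promote osteoclast formation moved in both directions. The chemokine gene *Ccl2* fell from 35.7, 64.1 and 60.0 normalized counts to 15.0, 12.1 and 8.96, the last from 7 reads (log2 fold change -2.12, 95% interval -2.83 to -1.41, limma adjusted p = 2.1e-04). *Cxcl12*, which attracts osteoclast precursors, had 16795, 12941 and 15092 with vehicle and 27593, 26739 and 30488 with corticosterone. Its log2 fold change of 0.93 (95% interval 0.77 to 1.08, limma adjusted p = 7.4e-08) was under the limit, and 1.01 without the vehicle library of replicate 1. *Wnt5a*, whose product raises RANK in precursors, was lower, with a log2 fold change of -0.39 (limma adjusted p = 0.0027, and 0.094 without the variance trend). *Lif* and *Ptgs2* had log2 fold changes of 0.17 and -0.06 (limma adjusted p = 0.34 and 0.85). *Il6* and *Il11* had at most 16 and 15 reads per library, and their values of -1.98 and -0.70 did not reach the adjusted p (limma, 0.11 and 0.52).

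Of the factors that restrain osteoclasts, *Efnb2*, a membrane ligand of Eph receptors, was lower (log2 fold change -0.60, 95% interval -0.88 to -0.32, limma adjusted p = 0.0037). That adjusted p was 0.18 without the variance trend, 0.051 without vehicle replicate 2, 0.11 without vehicle replicate 3 and 0.059 without corticosterone replicate 3. *Sema3a* had a log2 fold change of -0.11 (limma adjusted p = 0.065) and *Wnt4*, with at most 16 reads, one of -0.82 (limma adjusted p = 0.56). The adjusted p of *Sema3a* was under 0.05 in 7 of 19 alternatives. *Wnt16* and *Sfrp1* were not analysed here.

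Across these 5 lists, 33 of 38 genes had values, of which 4 were called, 1 higher and 3 lower. An adjusted p under 0.05 was reached by 19, or 57.6%, with 10 higher and 9 lower, and 24 had groups that did not overlap. Without the variance trend the 19 became 11, 7 higher and 4 lower, and the other alternatives gave 16 to 21. The lists hold well expressed genes, 30 of 33 with a mean of at least 10. Among all 13880 genes with such a mean, 3.58% were called, 27.7% had an adjusted p under 0.05 and 43.8% had groups that did not overlap. Because the lists were chosen with earlier results of these data known, their higher shares cannot be read as enrichment. The median log2 fold change of the 33 genes was -0.11, against -0.01 over all genes tested.

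**Figure D3:**
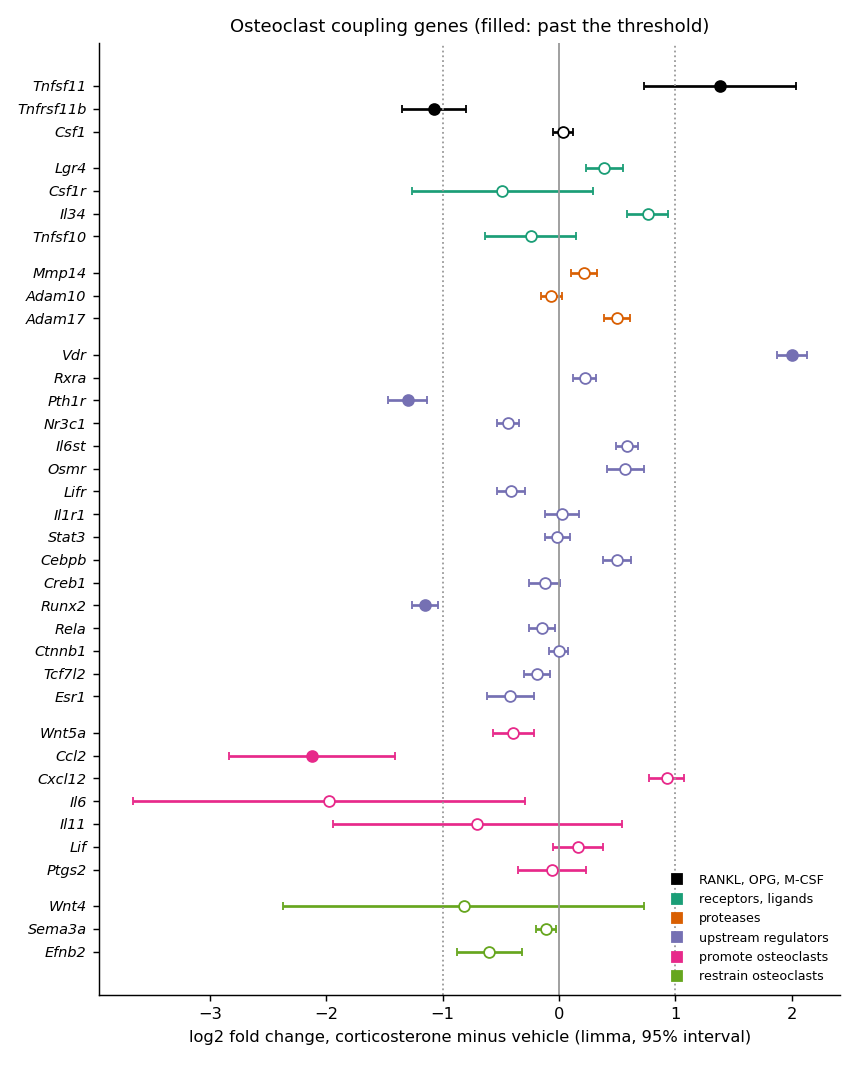
Log2 fold change (corticosterone minus vehicle) with its 95% limma interval for *Tnfsf11*, *Tnfrsf11b*, *Csf1* and 33 genes of 5 related lists, coloured by list. Filled points are called and dotted lines mark the fold limit of 1 in each direction. *Vdr* (2.00) lies farthest to the right and *Ccl2* (-2.12) farthest to the left.

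RANKL and OPG belong to the TNF ligand and receptor superfamilies. The genes described here are those whose symbols begin with *Tnfsf* or *Tnfrsf*, and members of these superfamilies with other symbols were left out. Of 27 such genes 5 were called and 8 had an adjusted p under 0.05. Without *Tnfsf11* and *Tnfrsf11b*, 3 of 25 (12.0%) were called and 6 (24.0%) had such an adjusted p, beside 2.78% and 16.7% of all genes, and 3.58% and 27.7% of genes with a mean of at least 10. Among 10 *Tnfsf* symbols, which include the noncoding *Tnfsf13os* and the readthrough gene *Tnfsfm13*, *Tnfsf11* was the 1 gene with an adjusted p under 0.05. Of the other 9, *Tnfsf12* (TWEAK) was the most abundant, at 215 ± 12.2 normalized counts in vehicle libraries and 223 ± 30.5 in corticosterone libraries (SD, n = 3 each). Its log2 fold change was 0.04 (limma adjusted p = 0.86). Among 17 *Tnfrsf* symbols, 1 was called higher and 3 lower, *Tnfrsf11b* included, beside 1.38% and 1.40% of all genes. *Tnfrsf19* (TROY) fell most, from 2815, 3864 and 3584 normalized counts to 1233, 1499 and 1401 (log2 fold change -1.30, limma adjusted p = 2.5e-08). *Tnfrsf25*, a death domain receptor gene, fell from 46.2, 65.6 and 44.5 to 24.6, 24.3 and 26.9 (-1.02, limma adjusted p = 0.0085). Its call was lost in 4 of 19 alternatives, with values of -0.84 (limma adjusted p = 0.060) without vehicle replicate 2 and -0.993 without corticosterone replicate 2. *Tnfrsf14*, which encodes the herpesvirus entry mediator, rose from 106, 126 and 94.1 to 252, 224 and 237 (1.14, limma adjusted p = 4.0e-06).

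The TNF receptors *Tnfrsf1a* and *Tnfrsf1b* had log2 fold changes of 0.06 (limma adjusted p = 0.39) and 0.85 (limma adjusted p = 2.1e-04), and the TWEAK receptor *Tnfrsf12a* one of 0.28 (limma adjusted p = 4.7e-04). The adjusted p of *Tnfrsf1b* and *Tnfrsf12a* reached 0.080 and 0.12 in 1 of 19 alternatives each. The death and decoy receptors *Tnfrsf10b*, *Tnfrsf22* and *Tnfrsf23*, each with a mean over 100, had values of -0.15, -0.39 and -0.26, with limma adjusted p from 0.063 to 0.11. The median log2 fold change of the 27 genes was -0.03.

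**Figure D4:**
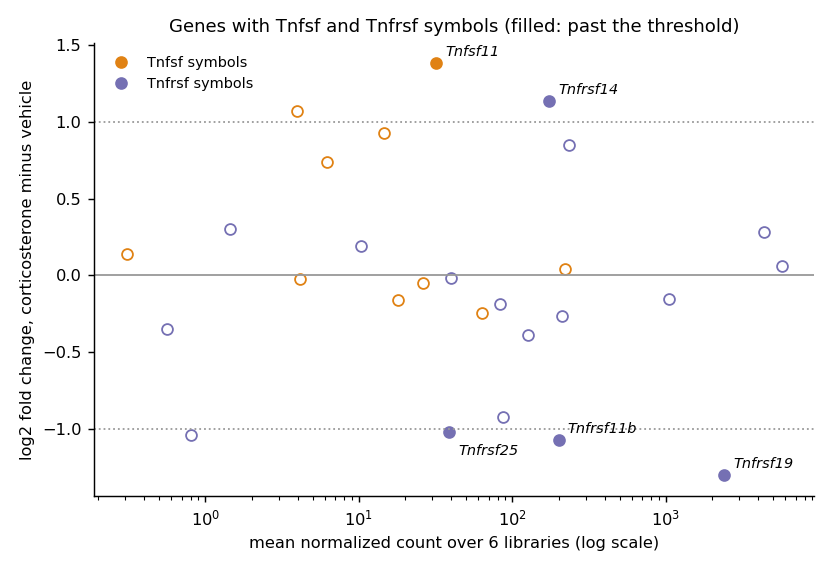
Mean normalized count over 6 libraries (log scale) against log2 fold change, corticosterone minus vehicle, for 27 genes with *Tnfsf* (orange) or *Tnfrsf* (purple) symbols. Filled points are called and dotted lines mark the fold limit. *Tnfsf11* (1.38) and *Tnfrsf14* (1.14) lie at the top, and *Tnfrsf19* (-1.30), *Tnfrsf11b* (-1.07) and *Tnfrsf25* (-1.02) at the bottom. The open points beyond the lines are *Tnfsf18* and *Tnfrsf26*, with at most 7 and 2 reads per library.

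Likeness of pattern was described by Pearson's r of log2 values over the 6 libraries, among genes with a mean of at least 100. For *Tnfsf11* and *Tnfrsf11b*, such r values are dominated by the difference between the 2 groups. The groups of *Csf1* overlapped, so its r values mostly follow differences between single libraries. No r value carries a test. The genes most like *Tnfsf11* were *Litaf* (r = 0.996), *Thap6* (0.993) and *Wnt10a* (0.993). Their own log2 fold changes were 0.22, 0.23 and 0.22 (limma adjusted p = 0.0033, 0.073 and 0.0015), smaller than that of *Tnfsf11*. For *Tnfrsf11b* the genes most like it were *Gm2a* (0.997), *Kcnh2* (0.997) and *Prr7* (0.995). Their log2 fold changes were -0.94, -0.72 and -0.32 (limma adjusted p = 1.6e-04, 3.6e-06 and 0.0063). For *Csf1* they were *Kdm1b* (0.990), *Gm10154* (0.977) and the pseudogene *Rps19-ps6* (0.975). Their log2 fold changes were 0.07, 0.12 and 0.15 (limma adjusted p = 0.65, 0.50 and 0.38). An r over 0.9 was found with 783 genes for *Tnfsf11*, 983 for *Tnfrsf11b* and 38 for *Csf1*. These were 7.42%, 9.32% and 0.36% of the genes ranked.

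Genes listed as markers of other cells were measured beside these results. Of 10 osteoclast markers, 7 had values, and their summed normalized count was 5245 to 5597 with vehicle and 3045 to 3280.3 with corticosterone. Nearly all of it came from *Mmp9*, *Ctsk*, *Nfatc1* and *Itgb3*, which were lower after corticosterone with a limma adjusted p under 0.05. Such an adjusted p, in either direction, was reached by 16.7% of all genes and 27.7% of those with a mean of at least 10. *Acp5*, *Calcr* and *Oscar* had at most 8 reads in any library, and *Calcr* had 6 in vehicle replicate 2 and 0 in every other library. Of 8 monocyte and macrophage markers, 5 had values, with a sum of 445 to 517 and 362 to 411. Whether any cells of these types were present, and what part they had in the results, was not tested.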

How the data were processed

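RNA-seq libraries of differentiated MC3T3-E1 cells, 3 vehicle and 3 corticosterone, were analysed from the table of 24016 genes. Per the processing notes the build is mm10, and the study names DESeq2, while the aligner, counting program and strand setting are not given in the sources used here. The authors deposited a non-negative signal per gene, named FPKM. Within 0.1 of a read, 100% of the values in each library are whole multiples of 1 step, so reads were recovered. The design had assumed FPKM and was kept. A gene with 3 reads has 2.32 to 3.84 normalized counts.

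The main test was limma 3.58.1 in R 4.3.3 (variance trend, log2(value + 0.1), mean of at least 0.1, Benjamini-Hochberg over all genes). The lowest mean was 0.257, so this filter removed no gene. Alternatives were pseudocounts of 1 and 0.01, a mean of at least 10 or no filter, the replicate number as a block, other prior variances, upper-quartile and total scaling, edgeR 4.0.16 (quasi-likelihood, TMM) and DESeq2 1.42.0 on recovered reads, and leaving out each library. The ratio was compared by an exact permutation test.

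The genes named are the 3 genes, those of the lists, *Tnfsf* and *Tnfrsf* genes that were called or had a mean of at least 100, and for each of the 3 genes the 3 most like it. The genes and lists were chosen with earlier results of these data known. Coordinates and lengths came from GENCODE M21 (GRCm38), which matched 23983 genes, and upstream sequences from RefSeq. Python 3.11.15 and pandas 2.3.3 were used.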

Additional observations from a re-analysis of the deposited data

How the results depend on the processing

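*Tnfsf11* and *Tnfrsf11b* kept their direction in 19 of 19 alternatives. Among these, the filters on the mean, the replicate block and the prior variances cannot move limma's log2 fold change. They can change only the adjusted p. For *Tnfsf11* the log2 fold change was 1.38 without a variance trend (limma adjusted p = 0.060, no longer called) and 1.24 to 1.67 with each library left out. For *Tnfrsf11b* it was -1.20 to -0.96 with each library left out. For *Csf1* it was -0.0069 with scaling to the same total, and it was called in no alternative. The difference in the log2 ratio ranged from 2.24 to 2.85 over 10 alternatives. Among these, division by exonic length and pairing by replicate number cannot move it. With pairing, the exact sign-flip test gave p = 0.25, the smallest that test allows here. The listed genes called higher numbered 1 to 2 with each library left out, the second being *Cxcl12*, and those called lower 3 throughout. Of 45 other genes tested singly, 5 that were not called turned sign, *Il1r1* with total scaling (-0.014) and, with each library left out, *Il1r1* (-0.025 to 0.081), *Stat3* (-0.049 to 0.042), *Ctnnb1* (-0.022 to 0.010), *Ptgs2* (-0.18 to 0.16) and *Tnfsf12* (-0.065 to 0.11). Of 19 listed genes with an adjusted p under 0.05, 11 kept it in every alternative and 8 lost it in at least 1 (*Lgr4*, *Mmp14*, *Rxra*, *Lifr*, *Esr1*, *Tcf7l2*, *Wnt5a* and *Efnb2*), all 8 without the variance trend. *Il6*, *Il11* and *Wnt4* had no value under some filters on low genes. The cause of these changes was not tested.

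Replicate numbers 1 to 3 are shared by the groups. Libraries of the same number did not deviate together (correlations across 13880 genes of -0.044, 0.0014 and 0.023), so they were not treated as pairs. With the replicate block, the log2 fold change was 1.38 for *Tnfsf11*, -1.07 for *Tnfrsf11b* and 0.03 for *Csf1*. The block cannot move these values in a balanced design. Their limma adjusted p was 0.0080, 1.9e-04 and 0.67 with it, in place of 0.0041, 1.3e-05 and 0.67. Over the table, 297 genes were called higher and 294 lower with the block, in place of 331 and 337. The block changed the call of none of the 3 genes and of no gene of the 5 lists. The table's count of 337 called lower was 204 without the vehicle library of replicate 3, 220 without that of replicate 2, and 198 with DESeq2 and the block. Depth limits *Tnfsf11*, *Ccl2*, *Csf1r*, *Il6*, *Il11* and *Wnt4*, which rest on few reads.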
